A study of Mus musculus with 30 samples.

Results

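The genes described are the acetylcholine receptors and acetylcholinesterase chosen by symbol: the muscarinic receptors Chrm1, Chrm2, Chrm3 and Chrm4, the nicotinic subunits Chrna4, Chrna7 and Chrnb2, and the enzyme Ache. Each symbol matched 1 row of the normalized-count table, so the set holds 8 of 21412 genes, and all 8 passed the filter on low values in every fit. They were measured by RNA sequencing in the hippocampus of 30 male BALB/c mice, 5 in each of 6 groups. The mice were young at the start, and the feeding ran through adolescence into early adulthood. Ctr mice ate unspiked feed, LD mice feed with 0.28 mg/kg of mercury as methylmercury (MeHg), and HD mice feed with 5 mg/kg, and the 3 groups labelled Se_Ctr, Se_LD and Se_HD received selenium beside the same mercury levels, in an amount that the sources used here do not give. All 30 mice share the inbred strain, the sex and the dissected tissue, and 1 library was made from each mouse. The comparisons ask whether the transcripts of these receptors and of the enzyme differed with mercury, with selenium, and with both.

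Acetylcholine reaches the hippocampus mainly from neurons of the medial septum and acts there through G-protein-coupled muscarinic receptors and through nicotinic receptors, which are ion channels built of several subunits. Chrm1 and Chrm3 encode receptors coupled to Gq and phospholipase C, and Chrm2 and Chrm4 receptors coupled to Gi, of which the Chrm2 product also acts as a presynaptic autoreceptor. Chrna4 and Chrnb2 encode the subunits that together form the most common heteromeric nicotinic receptor of the brain, Chrna7 forms a homomeric channel, and Ache encodes the enzyme that ends the signal by hydrolysing acetylcholine.

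Reads counted on genes ranged from 5768208 to 11510521 per library. Of 10 markers of hippocampal excitatory neurons, 9 averaged 10 or more normalized counts and Pou3f1 fewer. This rule cannot tell the hippocampus from other regions, because 8 of 8 striatum and 6 of 6 thalamus markers also met it. Of the septal cholinergic markers, Chat and Ngfr averaged fewer than 10 normalized counts. Libraries of the HD group stood apart in glial markers: the summed normalized count of 11 microglia genes lay between 3387 and 7794 in HD and between 2678 and 2882 in Ctr, with all 11 higher at an unadjusted p under 0.05 and 6 at an adjusted one, and 7 astrocyte genes summed to 54220 to 88730 against 44780 to 55250, with 4 of the 7 higher. The excitatory neuron list summed to 7206 to 12830 in HD and 8219 to 12090 in Ctr, with 0 of 10 called. The 8 inhibitory neuron genes summed to 4231 to 5442 in HD and 5356 to 6368 in Ctr, with 7 of the 8 below 0, a median log2 fold change of -0.27, and Pvalb and Gad1 lower at an unadjusted p under 0.05. The 8 choroid plexus genes ranged widely in both groups, summing to 7026 to 29780 in HD and 809 to 31490 in Ctr, with a median of 1.42 and Prlr and Folr1 higher at an unadjusted p. Some libraries also held more transcripts of tissue next to the hippocampus: LD mouse 4, LD mouse 5, Se_LD mouse 1 and Se_LD mouse 4 had over 100 summed counts of 5 medial habenula genes, and these 4 with Ctr mouse 1, HD mouse 5 and Se_Ctr mouse 1 had over 1300 counts of 6 thalamus genes. The part of these markers in the differences below was not tested, and where leaving out those libraries changed a call of one of the 8 genes it is given beside the result. In bulk RNA a smaller number of cells of a type and less transcript per cell cannot be told apart.

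In Ctr mice Chrm1 was by far the most abundant member per length of annotated exon, at 330.2 ± 30.6 normalized counts per kilobase (SD, n = 5), and the other muscarinic receptors lay well below it. Chrm3 followed at 127 ± 5.78, over an annotated exon length of only 1949 bases, and Chrm4 stood at 78.6 ± 24.8. Chrm2 was the least abundant of the 8 at 17.4 ± 3.78. Among the other members Ache had 89.5 ± 17.9 and Chrnb2 87.1 ± 11.4 counts per kilobase, a difference smaller than their spread, while Chrna4 had 40.5 ± 6.97 and Chrna7 25.3 ± 7.60. The message of the Chrnb2 subunit was thus present at a higher level per length than that of Chrna4 in each Ctr mouse, with ranges of 77.2 to 106 and 33.1 to 51.4. The members also differed in how much they varied from mouse to mouse. Within groups the SD of the log2 level was 0.13 for Chrnb2, 0.17 for Chrm1 and 0.20 for Ache, and 0.37 for Chrm2, 0.41 for Chrna4 and 0.42 for Chrm4. The fewest reads on a member in any library were 37, on Chrm2, for which the counting error is 16.4%, and the fewest on Chrm1 were 1227, for which it is 2.86%.

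**Figure D1:**
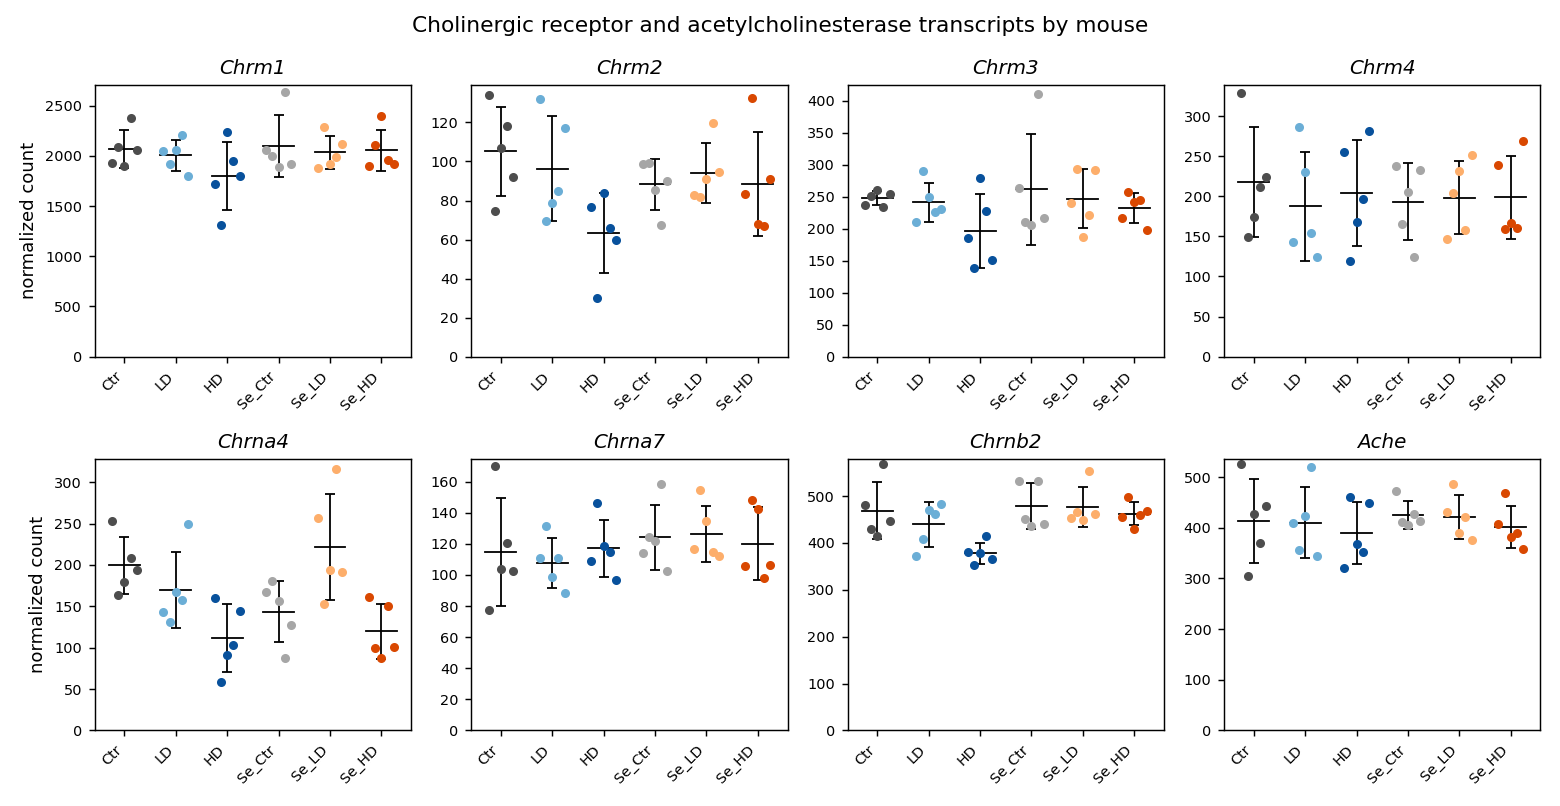
Normalized counts of the 8 genes on the y axes for each mouse (points), by group on the x axes, with the group mean (bar) and SD (whiskers), n = 5. The HD points of Chrna4 (57.9 to 160) and Chrnb2 (353 to 414) lie below every Ctr point (163 to 254 and 416 to 569).

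With the high dose and no selenium, 4 of the 8 members were lower than in Ctr at an unadjusted p under 0.05 and none was higher, against 8.34% of the 20031 genes tested, 3.26% lower and 5.08% higher. None of the 8 passed the Benjamini-Hochberg threshold of limma over all genes, which 0.13% of genes passed. The 4 were the nicotinic pair Chrna4 and Chrnb2 and the muscarinic receptors Chrm2 and Chrm3. For Chrna4 and Chrnb2 the HD and Ctr mice did not overlap, a pattern that held for 0.734% of all genes tested in this direction and 0.978% in the other. The median log2 fold change of the 8 was -0.26, beside 0.01 over all genes tested, and 7 of the 8 values were below 0.

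Chrna4, on the minus strand of chromosome 2 (180753085 to 180778251, NCBIM37), gave the lowest p of the set. Its normalized counts in the Ctr mice were 254, 163, 180, 208 and 194, and in the HD mice 160, 57.9, 91.6, 103 and 144. Every HD mouse lay below every Ctr mouse, although the highest HD value and the lowest Ctr value were close. The log2 fold change, on the scale of normalized count plus 1, was -0.91 with a standard error of 0.22 and a 95% interval of -1.37 to -0.45 (limma, unadjusted p = 0.000541, adjusted p = 0.125). An exact two-sided permutation test of the 5 against the 5 mice gave p = 0.00794, the smallest it can give, or 0.191 after adjustment over the 72 exact tests made on the 8 members. Chrna4 was lower in HD in all 5 sets of consecutively numbered libraries, each of which holds 1 mouse of every group, by 0.03 to 1.62 on the log2 scale. The adjusted p moved with the model: it was 0.0472 with all 30 libraries in 1 fit and 0.0263 with DESeq2 on the recovered reads, and 0.0373 without HD mouse 1. Without the 7 libraries rich in thalamus markers the log2 fold change was -0.93 (unadjusted p = 0.000861).

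Chrnb2, on the minus strand of chromosome 3 (89557370 to 89568554), differed less in size and more evenly between mice. The Ctr mice had 482, 430, 416, 569 and 446 normalized counts and the HD mice 381, 353, 378, 414 and 366. The HD values were the tightest of any group, with an SD of 22.6, and again all 5 lay below all 5 Ctr values. The log2 fold change was -0.30 with a standard error of 0.10 and an interval of -0.52 to -0.09 (limma, unadjusted p = 0.00855, adjusted p = 0.339; exact permutation p = 0.00794). HD was lower in all 5 library sets, by 0.18 to 0.59.

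The sequences before the annotated starts of the 4 members that were lower in HD are shown so that genes whose values lay in the same direction can be compared. They are the 250 bases before each RefSeq start in the build GRCm38.p6, written 5′ to 3′ on the strand of the gene, and capitals mark GGGCGG or its reverse complement CCGCCC, the core of the GC box bound by Sp1. RefSeq entries were found for 7 of the 8 members. The Chrna4 window lies at chr2:181039178-181039427 and the Chrnb2 window at chr3:89764633-89764882, both on the minus strand.
Chrna4: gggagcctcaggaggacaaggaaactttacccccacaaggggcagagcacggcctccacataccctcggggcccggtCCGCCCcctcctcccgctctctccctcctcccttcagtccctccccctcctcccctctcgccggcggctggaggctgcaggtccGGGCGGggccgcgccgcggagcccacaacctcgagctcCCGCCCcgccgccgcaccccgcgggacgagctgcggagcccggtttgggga
Chrnb2: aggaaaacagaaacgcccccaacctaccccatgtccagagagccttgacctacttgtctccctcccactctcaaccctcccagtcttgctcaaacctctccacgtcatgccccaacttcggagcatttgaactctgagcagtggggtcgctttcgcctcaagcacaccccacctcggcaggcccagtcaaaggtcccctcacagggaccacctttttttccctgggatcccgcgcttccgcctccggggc
The Chrm2 window lies at chr6:36387834-36388083 on the plus strand and the Chrm3 window at chr13:10360804-10361053 on the minus strand.
Chrm2: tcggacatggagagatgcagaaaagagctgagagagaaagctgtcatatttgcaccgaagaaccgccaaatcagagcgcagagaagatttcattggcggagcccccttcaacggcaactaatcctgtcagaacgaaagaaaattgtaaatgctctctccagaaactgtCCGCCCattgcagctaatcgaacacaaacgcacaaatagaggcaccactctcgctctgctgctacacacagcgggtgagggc
Chrm3: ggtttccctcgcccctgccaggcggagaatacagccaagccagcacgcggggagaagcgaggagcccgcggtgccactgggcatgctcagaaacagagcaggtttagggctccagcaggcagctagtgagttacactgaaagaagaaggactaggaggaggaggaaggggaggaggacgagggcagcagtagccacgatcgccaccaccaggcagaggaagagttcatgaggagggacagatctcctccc
None of the motifs searched was in all 4 windows. The letters GGGCGG, on either strand, occurred 3 times before Chrna4, 1 time before Chrm2 and not before Chrnb2 or Chrm3, and 32.7% of 32851 windows of the same length hold them. Chrna4 had a GC content of 74.4% and 24 CpG dinucleotides, and Chrnb2 59.6% and 10, beside medians of 52.4% and 6 over all windows. The cAMP response element TGACGTCA, in 1.55% of all windows, and the TATA box TATAAA, in 12.4%, were in none of the 4, and CCAAT, in 33.8%, was in that of Chrm2 alone, all searched on both strands.

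Chrm2 (chromosome 6, 36338084 to 36478414) was the muscarinic receptor with the largest difference. Its normalized counts were 134, 74.9, 107, 118 and 92.1 in Ctr and 76.7, 30.2, 83.8, 65.9 and 60.0 in HD. HD mouse 2 was the lowest of all 30 mice, and 3 of the 5 HD mice lay below every Ctr mouse. The log2 fold change was -0.77 with a standard error of 0.24 and an interval of -1.28 to -0.27 (limma, unadjusted p = 0.00459, adjusted p = 0.265; exact permutation p = 0.0238). Without HD mouse 2 it was -0.53 (unadjusted p = 0.0159).

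Chrm3 (chromosome 13, 9876381 to 9878329) was lower in HD with a wide spread. The Ctr mice lay close together at 238, 251.8, 261, 234 and 254 normalized counts, and the HD mice at 186, 139, 279, 227 and 152. HD mouse 3 was above all Ctr mice and the other 4 were below all of them. The log2 fold change of -0.38 (standard error 0.15, interval -0.70 to -0.06) had an unadjusted p of 0.0216 from limma and an adjusted p of 0.475, and the exact permutation test gave 0.103. Its unadjusted p passed 0.05 without HD mouse 2 or HD mouse 5, reaching 0.0795, and was 0.0956 without the libraries rich in thalamus markers.

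Chrm1 and Chrm4, one receptor of each coupling class, differed less. Chrm1 (chromosome 19, 8738495 to 8758077) had 1927, 2088, 1900, 2382 and 2055 normalized counts in Ctr and 1716, 1311, 2243, 1945 and 1800 in HD, a log2 fold change of -0.22 (interval -0.46 to 0.03, limma, unadjusted p = 0.0778, adjusted p = 0.671). Lowest was again HD mouse 2, without which the value was -0.11 (unadjusted p = 0.300), and the groups overlapped. Chrm1 was lower in HD in 4 of the 5 library sets. With these sets as a block it was called at an unadjusted p under 0.05, as given in the last section. Chrm4 (chromosome 2, 91762346 to 91769986) ranged from 150 to 328 in Ctr and from 119 to 282 in HD, with a log2 fold change of -0.10 and an interval of -0.62 to 0.41, which leaves room for a moderate difference in either direction. Exons of Chrm1, Chrm2 and Chrm4 share 329, 142 and 25 bases with genes on the opposite strand (7SK, 9330158H04Rik and Mdk), and whether the counting used strand is not given in the sources used here.

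Chrna7 and Ache gave values near 0 at the high dose. Chrna7 (chromosome 7, 70243578 to 70357455) had 77.3, 170, 104, 121 and 102 normalized counts in Ctr and 109, 146, 119, 115 and 96.7 in HD. The HD mice lay inside the range of the Ctr mice, with a log2 fold change of 0.06 (interval -0.31 to 0.43, limma, unadjusted p = 0.730, adjusted p = 0.957). Ache (chromosome 5, 137728747 to 137735694) had 525, 305, 426, 370 and 444 in Ctr and 320, 460, 368, 352 and 449 in HD. These groups also overlapped throughout, with a log2 fold change of -0.08 (interval -0.38 to 0.22, limma, unadjusted p = 0.603, adjusted p = 0.929).

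With the low dose and no selenium, 0 of the 8 members were called against Ctr, at an adjusted or an unadjusted p under 0.05, where 0 and 3.01% of genes were. No member's LD mice all lay on one side of the Ctr mice, as they did for 0.19% of genes below and 0.21% above. The log2 fold change of Chrna4 was -0.26 (interval -0.72 to 0.21), with LD values of 143, 131, 167, 157 and 249, of which 3 were below every Ctr mouse. LD mouse 4 (157) and LD mouse 5 (249) are among the libraries rich in habenula and thalamus markers. Without LD mouse 5, the highest, the value lies further below 0. That of Chrnb2 was -0.09 (interval -0.31 to 0.13), that of Chrm2 -0.14 (interval -0.65 to 0.37) and that of Chrm3 -0.04 (interval -0.36 to 0.27). The LD means of these 4 genes lay between those of Ctr and HD. These genes were picked for low HD values against the same Ctr mice, so this order is no separate result on dose. Among the other members Chrm1 and Ache had the same order, and Chrm4 and Chrna7 had their lowest mean in LD. Between LD and HD the exact permutation test gave p = 0.0556 for Chrnb2 (439.4 against 378.3) and for Chrm2 (96.4 against 63.3), 0.0794 for Chrna4 and 0.135 for Chrm3.

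**Figure D2:**
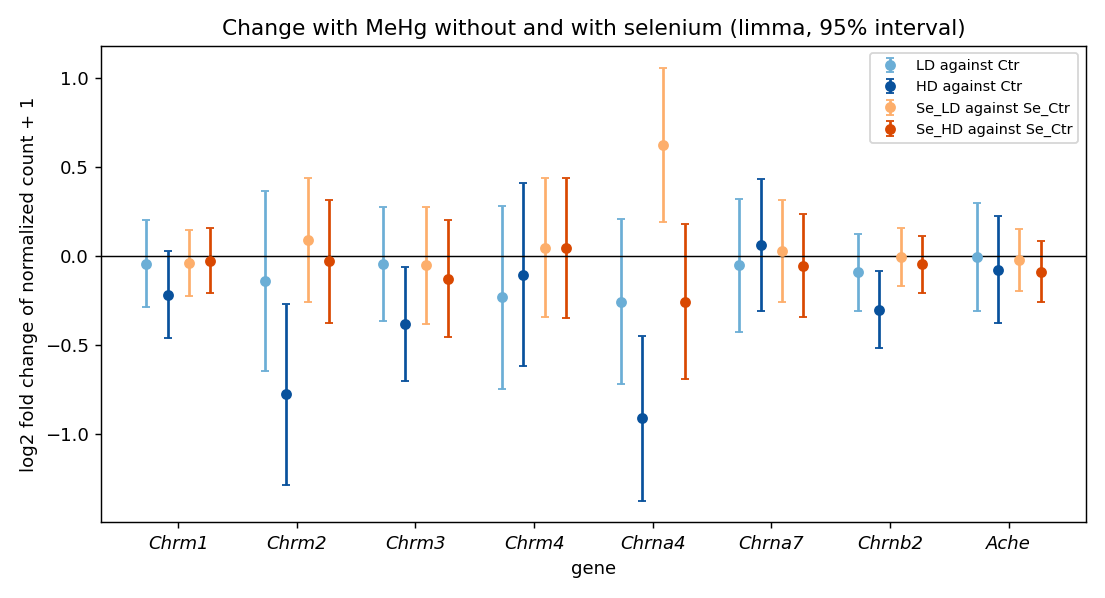
Log2 fold change (y axis, normalized count plus 1) of each gene (x axis) in 4 comparisons with the control group of the same diet, with 95% intervals from limma. The intervals of HD against Ctr exclude 0 for Chrm2, Chrm3, Chrna4 and Chrnb2, and that of Se_LD against Se_Ctr for Chrna4.

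In the selenium groups the high dose was compared with Se_Ctr, and 0 of the 8 members were called at an unadjusted p under 0.05, where 4.19% of genes were. Chrna4 was 167, 181, 156, 86.9 and 127 in Se_Ctr and 161, 99.9, 87.8, 150 and 101 in Se_HD. The groups overlapped, with a log2 fold change of -0.25 (interval -0.69 to 0.18, limma, unadjusted p = 0.236). Without Se_Ctr mouse 4, the lowest of its group, this was -0.42 (unadjusted p = 0.0418). For Chrnb2 the value was -0.05 (interval -0.21 to 0.12), for Chrm2 -0.03 (interval -0.38 to 0.32) and for Chrm3 -0.13 (interval -0.46 to 0.20). Set directly against HD, all 5 Se_HD mice were above all 5 HD mice for Chrnb2 alone, a separation in this direction found for 0.594% of genes, and in the other direction for 0.903% of genes and no member. The Se_HD mice had 456, 498, 430, 459 and 468 normalized counts of Chrnb2, close to those of Ctr (exact permutation p = 0.00794, 0.191 after adjustment over the 72 tests). For Chrna4 the means of the high-dose groups were 120.0 in Se_HD and 111.3 in HD (exact permutation p = 0.635).

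Whether the high-dose difference itself depended on selenium was tested as an interaction over all 30 mice. Chrm2 was called at an unadjusted p under 0.05, as 1 of the 8 members, where 4.77% of genes were: the interaction was 0.74 on the log2 scale with an interval of 0.11 to 1.37 (limma, unadjusted p = 0.0219, adjusted p = 0.997). The difference passed from -0.77 without to -0.03 with selenium, and the interaction holds the HD against Ctr difference already given. Glial markers moved with it: in the same interaction 10 of 11 microglia genes, and Gfap and Aqp4 of the 7 astrocyte genes, were lower at an unadjusted p under 0.05, and the microglia sums were 2789 to 3202 in Se_HD and 2588 to 3173 in Se_Ctr. Their part in the result was not tested. Its unadjusted p passed 0.05 without HD mouse 2 (0.0707) or Se_HD mouse 2 (0.0619), and was 0.0609 without the libraries rich in thalamus markers. The interactions of Chrna4 (0.65, interval -0.01 to 1.32) and Chrnb2 (0.25, interval -0.0023 to 0.51) had unadjusted p-values of 0.0537 and 0.0519, and that of Chrm3 (0.25, interval -0.22 to 0.72) one of 0.282. With the library sets as a block, Chrna4 (unadjusted p = 0.0375) and Chrnb2 (unadjusted p = 0.0334) were called beside Chrm2, and without the 4 libraries rich in habenula markers both were as well (unadjusted p = 0.0415 and unadjusted p = 0.0466), at values of 0.65 and 0.25. Without the libraries rich in thalamus markers Chrna4 was called (unadjusted p = 0.0307) and Chrm2 was not. Averaged over both diets, 4 of the 8 members were called at an unadjusted p for the high dose, Chrna4, Chrnb2, Chrm2 and Chrm3, all lower, where 9.09% of genes were called, 3.81% lower and 5.28% higher. None passed adjustment, which 0.21% of genes did. The values were -0.58 for Chrna4 (limma, unadjusted p = 0.00115, adjusted p = 0.153), -0.17 for Chrnb2 (unadjusted p = 0.00948), -0.40 for Chrm2 (unadjusted p = 0.0138) and -0.25 for Chrm3 (unadjusted p = 0.0356). Without the 7 libraries rich in thalamus markers the calls of Chrm2 (-0.33, unadjusted p = 0.0709) and Chrm3 (-0.21, unadjusted p = 0.130) were lost, and without Se_Ctr mouse 4 that of Chrm3 was (-0.17, unadjusted p = 0.117). This average and the comparison of HD with Ctr share the Ctr and HD mice. Over all 6 groups at once, an F test gave an unadjusted p under 0.05 for 3 of the 8 members, where 6.91% of genes had one, and an adjusted one for none, where 0.444% had: Chrna4 (unadjusted p = 0.000316, adjusted p = 0.0632), Chrnb2 (unadjusted p = 0.00529) and Chrm2 (unadjusted p = 0.0239). With the library sets as a block, with edgeR and with DESeq2, 1 of the 8 passed adjustment, beside 79, 299 and 470 of the 21383 genes tested.

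Chrna4 was also the 1 member of 8 called, at an unadjusted p alone, in each of 3 comparisons that leave out the high dose: Se_LD against Se_Ctr, Se_Ctr against Ctr, and the interaction of the low dose with selenium. All 3 hold the same Se_Ctr mice, whose Chrna4 mean of 144 was below that of Ctr at 200, so they are not separate results. The Se_LD mice had 256, 152, 194, 315 and 192 normalized counts, the highest group mean at 222 ± 64.2 (SD, n = 5), and 4 of the 5 exceeded every Se_Ctr mouse. Against Se_Ctr the log2 fold change was 0.62 (interval 0.19 to 1.06, limma, unadjusted p = 0.00715, adjusted p = 1.00), the only 1 of the 8 members called at an unadjusted p, where 3.31% of genes were. Se_LD mouse 1 and Se_LD mouse 4, the highest, are among the libraries rich in habenula and thalamus markers. Without the 4 libraries rich in habenula markers the value was 0.35 (unadjusted p = 0.119), and without the 7 rich in thalamus markers 0.42 (unadjusted p = 0.0828). In the same comparison 4 of the 6 thalamus markers were higher at an unadjusted p under 0.05, Ramp3, Tcf7l2, Lef1 and Slc17a6. Selenium alone, Se_Ctr against Ctr, gave -0.50 for Chrna4 (interval -0.97 to -0.03, limma, unadjusted p = 0.0369, adjusted p = 1.00), again the only 1 of 8 members, where 4.00% of genes were called. Its unadjusted p rose above 0.05 without any one of Ctr mouse 1, Ctr mouse 4, Se_Ctr mouse 4 or Se_Ctr mouse 5, up to 0.16 at a value of -0.33 without Se_Ctr mouse 4, and was 0.0530 without the 7 libraries rich in thalamus markers and 0.0576 without the trend. The low-dose difference in Chrna4 was -0.26 without selenium and 0.62 with it, of opposite sign, an interaction of 0.88 (interval 0.21 to 1.54, limma, unadjusted p = 0.0112, adjusted p = 0.998), where 3.75% of genes were called. Without the habenula-rich libraries this interaction was 0.78 (unadjusted p = 0.0352), and without the thalamus-rich ones 0.76 (unadjusted p = 0.0455). Averaged over the 3 mercury levels the selenium groups had a higher Chrnb2 by 0.15 (interval 0.04 to 0.25, limma, unadjusted p = 0.00736, adjusted p = 0.675), 1 of 8 members where 6.62% of genes were called, and for Chrna4 the value was 0.01. The Chrnb2 difference was 0.03 for Se_Ctr against Ctr, 0.12 for Se_LD against LD and 0.29 for Se_HD against HD. The average thus reuses the low HD mice already described. In the same comparison 7 of 11 microglia and 3 of 7 astrocyte genes were lower at an unadjusted p under 0.05, and their part was not tested. For the low dose averaged over both diets, 0 of 8 members were called, where 2.69% of genes were.

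Ordered by group mean, Chrna4 ran from Se_LD (222) over Ctr (200), LD (170), Se_Ctr (144) and Se_HD (120) to HD (111), and no neighbours in this order differed by more than 1 SD. Of the 40 steps between neighbouring groups over the 8 members, 2 exceeded 1 SD: from LD to HD for Chrnb2, and from Se_Ctr (88.2) to HD (63.3) for Chrm2. HD had the lowest mean of the 6 groups for 6 members, the exceptions being Chrm4 and Chrna7, which were lowest in LD.

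Chrna4 and Chrna7 were tied in opposite directions to the thalamus markers. Each group was centred on its mean, and Pearson's r was taken across the 30 libraries. The r with the mean log2 level of the 6 thalamus markers was 0.73 for Chrna4 and -0.64 for Chrna7. Between the log2 levels of the 2 subunits it was -0.71. Each point is 1 dissected hippocampus, both quantities come from the same library, and the part of neighbouring tissue was not tested. LD mouse 5, Se_LD mouse 1 and Se_LD mouse 4 had 2654, 2619 and 2652 marker counts and the Chrna4 values 249, 256 and 315. In HD against Ctr 0 of the 6 thalamus markers were called.

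**Figure D3:**
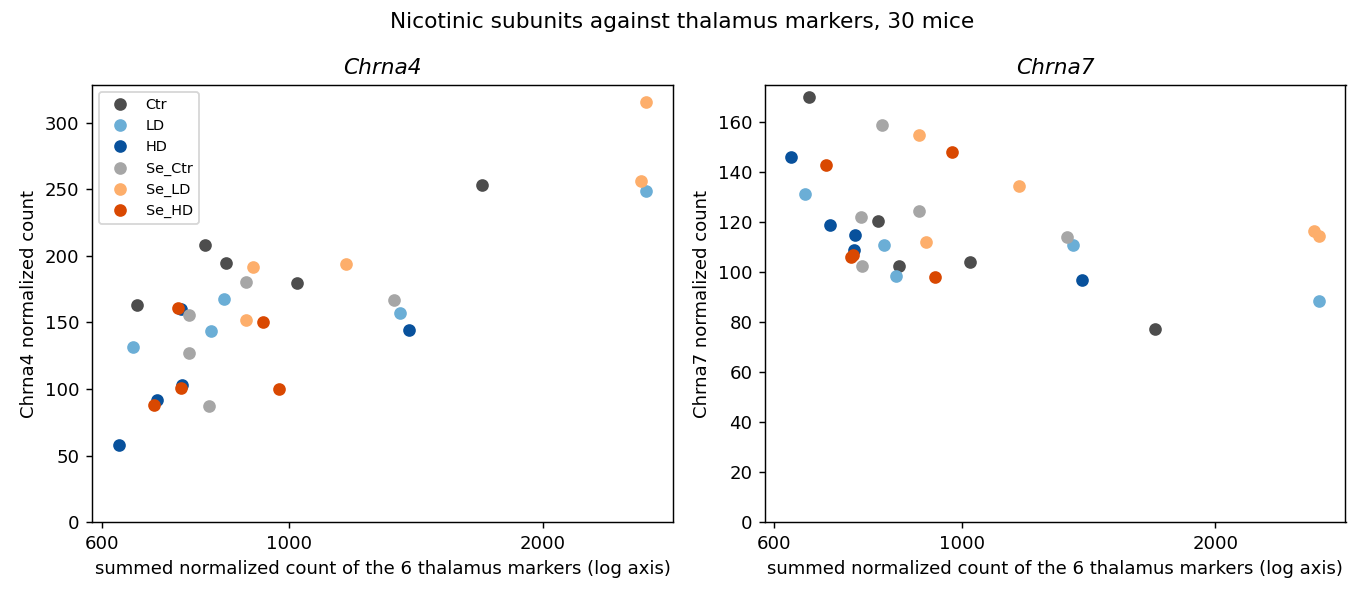
Normalized counts of Chrna4 (left) and Chrna7 (right) on the y axes against the summed normalized count of 6 thalamus markers on a log x axis, 1 point per mouse, coloured by group. Chrna4 is higher and Chrna7 lower in libraries with more thalamus transcripts, and most HD points lie at low marker counts and low Chrna4. The within-group r of 0.73 and -0.64 is with the mean log2 level of the 6 markers, not with the sum shown.

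Among the members, Chrm1 and Chrm3 varied together within groups (r = 0.71), and so did Chrm2 with Chrna4 (r = 0.51), while the nicotinic partners Chrna4 and Chrnb2 did so weakly (r = 0.27, all over 30 libraries). The mean log2 level of the excitatory neuron markers moved with both Chrm1 (r = 0.63) and Chrm3 (r = 0.63), and with Chrna7 (r = 0.58). The part of these markers in the values was not tested. The same centred values of Chrm1 and Chrm2 ran against the mean log2 level of the astrocyte markers, with r of -0.55 for each. Those of Chrm1, Chrm2 and Chrm3 ran against the mean log2 level of the microglia markers, with r of -0.50, -0.55 and -0.53. For Ache the microglia value was 0.49, of the opposite sign, and for Chrna4 and Chrnb2 it was -0.17 and -0.20. HD mouse 2, the lowest of the 30 mice for 6 members (Chrm1, Chrm2, Chrm3, Chrm4, Chrna4 and Chrnb2), had the highest microglia sum of the 30 libraries at 7794 and the highest astrocyte sum at 88730. Without it 3 of the 8 members were called at an unadjusted p in HD against Ctr, Chrna4, Chrnb2 and Chrm2, where 6.37% of genes were, and the part of glial transcripts in the lower values of HD was not tested. Among the 14296 genes averaging 10 normalized counts or more, those with the highest within-group r to a member were Ptk2b (0.84), Tppp (0.83) and Camk2a (0.82) for Chrm1, and Pgbd5 (0.86), Ppp1r16b (0.83) and Jph1 (0.83) for Chrm3. For Chrm2 they were Epb4.1l3 (0.82), Osbpl1a (0.74) and Ctnna2 (0.71), and for Chrm4 Per1 (0.79), Hdac5 (0.77) and Rims4 (0.77). Chrna4 was most like Ccdc136 (0.86), Rims3 (0.83) and Sgpp2 (0.81), Chrna7 most like BC057079 (0.84), Dgkg (0.83) and Slitrk5 (0.81), and Chrnb2, with lower values, most like Atpaf1 (0.71), Gm16092 (0.61) and Ttc17 (0.60). The genes most like Ache were AC122821.1 (0.83), Tsc22d4 (0.83) and Fth1 (0.82).

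The other genes of the pathway were described from 5 lists, and at the high dose without selenium every one of them called at an unadjusted p under 0.05 was lower than in Ctr. The share called over all genes was 8.34%, with 3.26% lower, so that 1 gene called in a list of 6 to 11 is near the background. Among the other receptor subunits 1 of 11 with a row was called, Chrna5, an accessory subunit that joins the Chrna4 and Chrnb2 receptor, at -0.57 (limma, unadjusted p = 0.0190, adjusted p = 0.459). Its values were 27.8, 40.8, 52.0, 30.4 and 42.2 normalized counts in Ctr and 26.9, 22.9, 34.0, 25.7 and 18.3 in HD, with overlap between the groups. Of the 6 genes of acetylcholine synthesis, transport and hydrolysis 1 was called, Bche, the butyrylcholinesterase that also hydrolyses acetylcholine, at -0.63 (unadjusted p = 0.00515, adjusted p = 0.271). Among the 7 assembly and modulator proteins 1 was called, Lypd6, which encodes a protein of the Ly6 family that modulates nicotinic receptors.

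Lypd6 had the lowest p of the pathway genes in this comparison. Its normalized counts were 257, 180, 202, 198 and 188 in Ctr and 163, 85.7, 133, 136 and 143 in HD. No HD mouse reached the lowest Ctr mouse. The log2 fold change was -0.65 with a standard error of 0.15 (limma, unadjusted p = 0.000353, adjusted p = 0.110), and the adjusted p was 0.00671 with all 30 libraries in 1 fit, 0.0108 with DESeq2 and 0.0440 without HD mouse 1. With selenium, Lypd6 had an interaction of 0.56 on the log2 scale (limma, unadjusted p = 0.00415, adjusted p = 0.703).

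Of 10 genes of muscarinic Gq signalling and the M-current 4 were called, all lower, beside 3.26% of all genes: Plcb4, a phospholipase C, at -0.43, Itpr1, the inositol trisphosphate receptor, at -0.33, Prkcb, a protein kinase C, at -0.30, and Kcnq3, an M-current channel subunit, at -0.78. For Kcnq3 the value rested on Ctr mouse 2, which had 126 normalized counts where the other Ctr mice had 31.4 to 37.1, and without it the value was -0.42 (unadjusted p = 0.0812). That of Plcb4 was -0.27 without Ctr mouse 1 (unadjusted p = 0.103) and that of Itpr1 -0.19 without HD mouse 2 (unadjusted p = 0.154). Of 9 genes of Gi signalling and the GIRK channels 1 was called, Adcy1, the calmodulin-stimulated adenylyl cyclase, at -0.39, and without HD mouse 2 its value was -0.22 (unadjusted p = 0.104). The calls of Itpr1 and Adcy1 were also lost without the libraries rich in thalamus markers (unadjusted p = 0.102 and unadjusted p = 0.0666). The median log2 fold changes of the 5 lists were -0.13, -0.09, -0.03, -0.08 and -0.14, in the order given, beside 0.01 over all genes. In this fit none of the pathway genes passed the adjusted threshold.

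**Figure D4:**
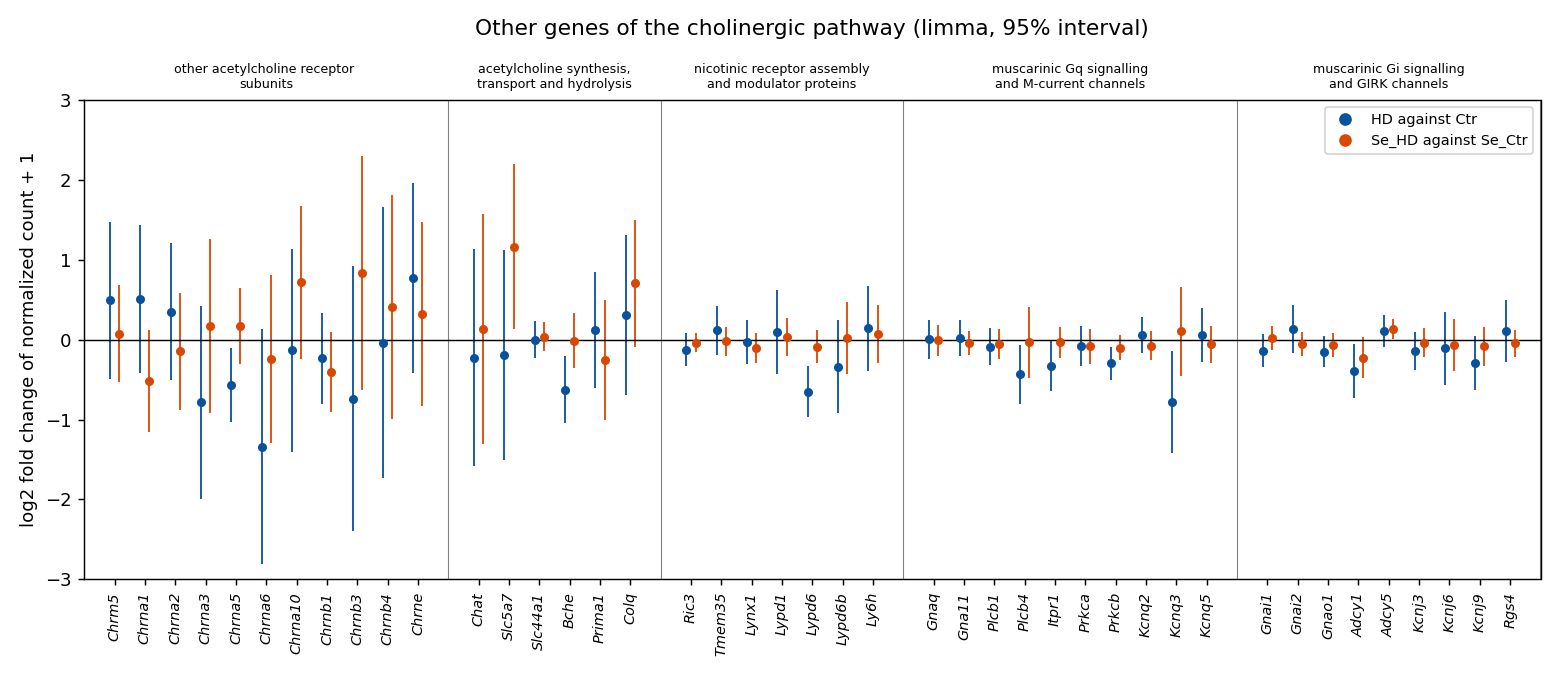
Log2 fold change (y axis, normalized count plus 1, with 95% intervals from limma) of the other cholinergic pathway genes (x axis, in 5 lists) for HD against Ctr and Se_HD against Se_Ctr. For HD the intervals of Chrna5, Bche, Lypd6, Plcb4, Itpr1, Prkcb, Kcnq3 and Adcy1 lie below 0; wide intervals belong to genes with few counts.

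In the selenium groups 2 of the 43 pathway genes tested were called for the high dose at an unadjusted p under 0.05, where 4.19% of all genes were. Slc5a7, the choline transporter of cholinergic terminals, was higher in Se_HD than in Se_Ctr by 1.17 (limma, unadjusted p = 0.0292, adjusted p = 1) and Adcy5 by 0.13, and no pathway gene was lower. Slc5a7 is a low-count gene here, with 2.59 to 11.7 normalized counts in Se_Ctr and 6.10 to 27.2 in Se_HD, ranges that overlap. Chat, which encodes the enzyme that makes acetylcholine, was listed at 0 in 4 of 5 Ctr, 4 of 5 HD and 2 of 5 LD libraries and reached 10.3 in Se_LD mouse 4. Of the 4 of 43 pathway genes called in Se_LD, all higher, where 3.31% of all genes were called, namely Slc5a7 (1.33), Colq (0.98), Chrna10 (0.97) and Plcb4 (0.52), the values of Slc5a7 and Plcb4 were 0.48 and 0.06 at the lowest of all alternatives, each where libraries rich in habenula or thalamus markers were left out. None of the 4 was called without the habenula-rich or without the thalamus-rich libraries, where Colq was 0.97 and 0.78 and Chrna10 0.54 and 0.64. In LD against Ctr, Colq, the collagen tail that anchors acetylcholinesterase, was the only 1 of 43 pathway genes called, where 3.01% of all genes were, at 1.16 with under 6 normalized counts in every library.

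The remaining comparisons called few of the 43 pathway genes, all at an unadjusted p alone. Averaged over both diets, the high dose called 5, where 9.09% of all genes were called, with lower Lypd6 (-0.37, limma, unadjusted p = 0.000275, adjusted p = 0.0804), Bche (-0.32), Prkcb (-0.20) and Adcy1 (-0.31), and with higher Adcy5 (0.12). The interaction of the high dose with selenium called 4, where 4.77% of all genes were called: Chrna5 (0.74), Bche (0.62), Lypd6 and Kcnq3 (0.89). All 4 were also called lower in HD against Ctr, and the interaction holds that same difference with its sign reversed, so values above 0 for them are no separate result. The call of Kcnq3 was lost without the habenula-rich libraries (unadjusted p = 0.0564) and that of Chrna5 without the thalamus-rich ones (unadjusted p = 0.0530). Kcnq3 was 0.52 without Ctr mouse 2 (unadjusted p = 0.156). Over all mercury levels selenium called 3, where 6.62% of all genes were called, with higher Ric3 (0.12), a chaperone of nicotinic receptor assembly, Prkcb (0.13) and Gnai1 (0.11), a Gi alpha subunit. The low dose over both diets called 4, where 2.69% of all genes were called, with higher Chrnb3 (1.28), a nicotinic subunit, Slc5a7 (1.19), Colq (1.07) and Plcb4 (0.35). Without the 4 libraries rich in habenula markers these were 0.13 for Chrnb3, 0.29 for Slc5a7, 0.01 for Plcb4 and 1.09 for Colq, the last still with an unadjusted p under 0.05. In Se_Ctr against Ctr and in the interaction of the low dose with selenium 0 pathway genes were called.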

How the data were processed

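Hippocampal RNA of 30 mice, 1 library each and 5 mice per group, was sequenced single-end from a stranded mRNA kit. The authors trimmed reads with Trim Galore 0.4.2, aligned them with HISAT2 to NCBIM37, counted them per gene with featureCounts and deposited 1 table of 21412 genes, a signal of gene counts divided by DESeq2 size factors. The strand setting of the counting is not given in the sources used here. Whole reads were recovered from the deposited values (100% of values above 0 within 0.01 of a whole read). Groups came from the sample labels, and mice were numbered in deposit order.

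Tests used limma 3.58.1 with a trend (R 4.3.3) on log2(normalized count + 1), for genes summing to 10 or more: 1 fit for Ctr, LD and HD, 1 for the selenium groups, and 1 over all 30 libraries for the 6 groups, for Se_Ctr against Ctr, for effects over diets or doses and for interactions. P-values were adjusted by Benjamini-Hochberg over all genes tested, at 0.05. Exact two-sided permutation tests compared the members between groups (numpy 2.4.6). A pathway gene is named when its unadjusted p is under 0.05 in a comparison, with Chat, Slc18a3 (no row) and Slc5a7 named regardless, and the 3 genes most like each member by within-group r are named. Members, lists and tests were chosen with earlier results of these data known. Alternatives were pseudocounts of 0.1 and 10, other filters, quantile and TMM scaling, a covariate for sets of 6 library numbers, no trend, other libraries in the fit, edgeR 4.0.16 and DESeq2 1.42.0 on recovered reads, and leaving out each mouse. Leaving out libraries rich in habenula or thalamus markers was chosen after seeing the data. Exon lengths and overlaps came from the NCBIM37 annotation and promoter sequences from RefSeq (GRCm38.p6).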

Additional observations from a re-analysis of the deposited data

Results flagged for a closer look

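In groups of 5 mice, a highest or lowest value was singled out when its gap to the next mouse exceeded 0.71 of the group's range. Of 54 groups examined, 4 met this, and chance alone flags about 1 in 20, or 2.7 of 54. Se_Ctr mouse 4 was far above its group for Chrm1 (2641 normalized counts, gap 0.774 of the range) and for Chrm3 (411.3, gap 0.719). Se_LD mouse 4, one of the libraries rich in habenula and thalamus markers, was far above its group for Chrnb2 (553.4, gap 0.834). HD mouse 1 had far fewer reads on genes than the other HD mice (7133831, gap 0.821).

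Interactions with selenium at an unadjusted p under 0.05 were also listed. For Chrm2 the high-dose difference was 0.74 higher on the log2 scale with selenium than without (limma, unadjusted p = 0.0219). For Chrna4 the low-dose difference was below 0 without selenium and above 0 with it, 0.88 apart (limma, unadjusted p = 0.0112). Neither passed adjustment over all genes.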

How the results depend on the processing

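Counts of members called at an adjusted p went from 0 to 1 for the 6 groups with the library-set covariate, with edgeR and with DESeq2, and to 1, Chrna4, for HD against Ctr with all 30 libraries in 1 fit and with DESeq2; leaving out 1 mouse gave 0 to 1 in both. At an unadjusted p, with the share of all genes called in brackets, Se_LD against Se_Ctr went from 1 member to 0 without the habenula-rich (2.95%) or the thalamus-rich libraries (3.15%). Se_Ctr against Ctr went from 1 to 0 without the trend (4.18%) or the thalamus-rich libraries (3.71%). The high dose over both diets went from 4 to 2 without the thalamus-rich libraries (8.66%). The high dose by selenium went from 1 to 2 with a pseudocount of 10 (4.87%) or DESeq2 (4.32%). It went to 3 with quantile scaling (4.95%), the set covariate (4.73%) or no habenula-rich libraries (4.78%). Leaving out 1 mouse gave 0 to 1 for Se_HD against Se_Ctr (1 without Se_Ctr mouse 4, where 5.38% of all genes were called) and for Se_Ctr against Ctr. It gave 1 to 2 for selenium over all doses (2 without Ctr mouse 2, beside 7.26%) and 0 to 3 for the high dose by selenium (0 without HD mouse 2, beside 4.1%).

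Of the member values given in numbers above, some near 0 changed sign. Without the thalamus-rich libraries Chrna7 in HD was -0.0019, without the habenula-rich ones Chrm3 in LD was 0.0020, and Chrm2 in Se_HD was 0.0058 with edgeR, 0.0048 with DESeq2 and 0.013 without the thalamus-rich libraries. Leaving out 1 mouse gave, for HD, -0.24 to 0.072 for Chrm4, -0.067 to 0.22 for Chrna7 and -0.18 to 0.015 for Ache, for LD -0.11 to 0.0037 for Chrm3, and for Se_HD -0.19 to 0.056 for Chrm2 and -0.20 to 0.049 for Chrm3. The causes were not tested. In HD against Ctr, Chrna4 lay between -1.06 and -0.70 and Chrnb2 between -0.34 and -0.23 with 1 mouse left out, and both kept an unadjusted p under 0.05. The count of all genes called there at an adjusted p depended on the model and the libraries: 26 as reported, 0 without the trend, with HD and Ctr alone or without the thalamus-rich libraries (1595, 1498 and 1370 at an unadjusted p, limma), 11 with a pseudocount of 10, 17 with one of 0.1, 13 without the habenula-rich libraries, 45 with edgeR, 196 with DESeq2 and 200 with all 30 libraries in 1 fit. Leaving out 1 mouse gave 3 (Ctr mouse 4) to 76 (HD mouse 3), with 57 without HD mouse 1. The labels pair no mice by replicate number, so the paired analysis used the sets of 6 library numbers as a block. In HD against Ctr it called 5 members at an unadjusted p, Chrm1 added (unadjusted p = 0.0490), where 8.13% of all genes were called, and 0 at an adjusted one. Without the block 4 members were called at an unadjusted p, where 8.34% of all genes were.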
